A study of Mus musculus with 10 samples.

Results

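Among 10 RNA sequencing libraries of mouse TH2 cells, the 7 made from vitamin D-deficient mice fell into 2 sets by their content of Ighm RNA, which encodes the heavy chain of IgM and is made by B cells. The sets were chosen by the measured level of Ighm: a library belonged to the Ighm-high set where Ighm exceeded 100 CPM, its count scaled by the library's column total, and to the Ighm-low set where it lay below. Deficient libraries 5, 6 and 7 formed the Ighm-high set, with 172, 159 and 179 CPM of Ighm. Deficient libraries 1 to 4 formed the Ighm-low set, with 41.3, 49.95, 44.7 and 49.4 CPM. The libraries nearest the threshold were library 6 above it and library 2 below it, and no library lay between them. Control libraries 1 to 3 held 12.4, 7.86 and 37.9 CPM and took no part in the grouping. The grouping was read from these same RNA measurements, so every difference between the sets is a description without a test.

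All mice were C57BL/6, labelled wild type, and the animals used were second-generation offspring. The deficient mice were kept free of UV light and ate food without vitamin D metabolites. The controls were otherwise kept alike and ate standard food with vitamin D3 at 400 IU per kg. Naive CD4+ T cells were turned into TH2 cells in culture and lysed on day 5, with no further treatment. The 4 Ighm-low libraries and library 5 carry the batch label 1, as do control libraries 1 and 2, whereas libraries 6 and 7 and control library 3 carry the batch label 2. The labels do not say whether libraries came from separate mice or pools. Xist, the RNA of the inactive X chromosome, reached 657 CPM in deficient library 1 and 733 CPM in deficient library 3 and stayed below 1 CPM in the other 8 libraries, so the Ighm-low set mixes libraries with and without it. Genes on chromosomes X and Y were therefore left out.

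TH2 cells are the helper T cells of allergy and worm infection; their cytokines IL-4, IL-5 and IL-13 depend on the transcription factor GATA3. Interferon-gamma, encoded by Ifng, is the cytokine of TH1 and cytotoxic T cells, and acts on genes with interferon-response elements in their promoters. Granzymes and perforin kill target cells and are stored by CD8+ T cells, NK cells and some helper T cells. The vitamin D receptor, encoded by Vdr, is a nuclear receptor that binds DNA together with RXR partners such as the product of Rxra. A TH2 culture is not pure by construction, so RNA of other cell types is described first and apart from T cell genes.

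Library totals ran from 7029207 to 13192832 counts in the Ighm-low set and from 8526526 to 13433276 counts in the Ighm-high set, so depth overlapped between the sets. Levels below are CPM scaled by TMM, which corrects totals for composition with factors between 0.968 and 1.025. Mitochondrial ribosomal RNA took 3.91% to 8.64% of counts in the Ighm-low set and 4.29% to 6.11% in the Ighm-high set. Over the genes measured, Pearson's r of log2 CPM was 0.988 to 0.994 within the Ighm-low set, 0.991 to 0.994 within the Ighm-high set and 0.970 to 0.983 between them. The main principal component of the 7 libraries held 56.4% of the variance, with the Ighm-low libraries between -24.68 and -15.64 and the Ighm-high libraries between 18.66 and 28.43. Library 5, of batch 1, stood farthest from the Ighm-low set on this axis. The Ighm-low set was all batch 1 and the Ighm-high set held libraries of both batches, so the part of batch was not tested.

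A gene was measured where its mean over the 7 deficient libraries was at least 1 CPM, which held for 12078 genes. A gene was counted as higher or lower where the sets did not overlap and their medians of log2(CPM + 0.5) differed by at least 1.5-fold. By this rule 559 genes (4.63%) were higher and 334 (2.77%) were lower in the Ighm-high set. The counts of each list below are to be read against these shares. Without the fold minimum, 1870 genes (15.5%) lay above and 1689 (14.0%) lay below with no overlap. Some genes pass the low-level filter through the Ighm-high set alone, and among the 11750 genes at 1 CPM or more on average in each set, 472 (4.02%) were higher and 284 (2.42%) were lower. Within batch 1, where library 5 stands alone against libraries 1 to 4, 698 genes were higher and 621 lower. These included 530 of the 559 and 313 of the 334. Sets that do not overlap leave library 5 apart from libraries 1 to 4, so only the fold could fail there. The shared counts are therefore no test of batch. Library 7 lay nearest the Ighm-low set for 337 of the 559 higher genes (60.3%) and 217 of the 334 lower genes (65.0%).

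**Figure D1:**
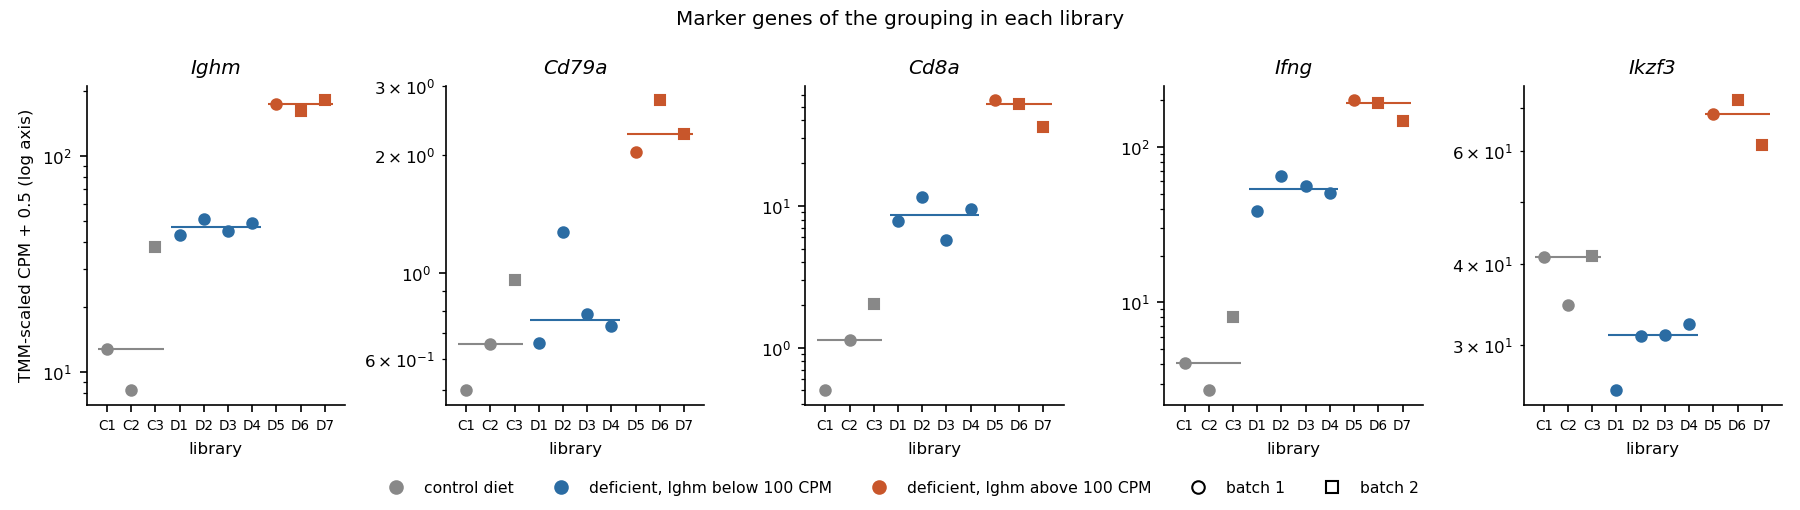
Levels of the 5 genes that mark the grouping in each library, as TMM-scaled CPM plus 0.5 on a log axis, with control libraries C1 to C3 and deficient libraries D1 to D7. Points are libraries, squares are batch 2, and lines are group medians. For all 5 genes, which were named as markers with earlier results of these data known, the 3 Ighm-high libraries lie above the 4 Ighm-low libraries.

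The 5 genes that mark the grouping all separated the sets, which for Ighm is fixed by the rule. The other genes were named as markers with earlier results of these data known, so their separation is no support for the grouping. Ighm (chr12:113418558-113422730, minus strand, GRCm38) read 42.7, 50.7, 44.4 and 48.2 scaled CPM in libraries 1 to 4 and 173, 160 and 180 in libraries 5 to 7. Cd79a, the signalling chain of the B cell receptor, was under the level filter, with 0.160 to 0.770 CPM in the Ighm-low set and 1.53, 2.25 and 1.76 CPM in libraries 5, 6 and 7. Cd8a (chr6:71373427-71379173, plus strand), the CD8 co-receptor, read 7.34, 11.0, 5.23 and 9.0 CPM in libraries 1 to 4. It read 54.7, 51.3 and 35.3 CPM in libraries 5 to 7, a difference of medians of 2.59 on the log2 scale. Ikzf3 (chr11:98464902-98546031, minus strand), which encodes the lymphoid transcription factor Aiolos, read 25.0, 30.5, 30.5 and 31.8 CPM against 68.0, 71.4 and 60.8 CPM. Its control libraries, at 40.6, 34.1 and 40.7 CPM, lay between the 2 deficient sets.

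B cell genes formed the list with the largest median difference. Of 24 autosomal members 16 were measured, 13 were higher and 0 lower, with a median of 2.21 against 0.01 over all genes, and of the 10 present in both sets 7 were higher. Ighm, which chose the sets, is 1 of the 13, and without it 12 of 15 measured members were higher, and 6 of 9 in both sets. Summed over all its autosomal members other than Ighm, the list held 58.6 to 79.6 CPM in the Ighm-low set and 212 to 235 CPM in the Ighm-high set. Cd79b, a signalling chain of the B cell receptor, read 8.78, 16.6, 8.34 and 14.0 CPM in libraries 1 to 4 and 64.9, 60.6 and 69.8 CPM in libraries 5 to 7. Ms4a1, which encodes CD20, rested at 1.68 to 5.77 CPM in the Ighm-low set and 18.1 to 19.5 CPM in the Ighm-high set. Control library 3 stood apart from the other controls in the same genes, with 27.4 CPM of Ms4a1 against 0.685 and 0.948 CPM, and its sum over the list without Ighm was 162 CPM against 93.5 and 91.6 CPM. In bulk RNA, more cells of a type and more RNA per cell cannot be told apart.

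Genes of antibody-forming B cells were among those with the largest differences. Ighg1, the constant region of IgG1, read 3.83, 7.70, 3.11 and 6.48 CPM in libraries 1 to 4 and 39.1, 37.8 and 44.0 CPM in libraries 5 to 7. Beside Ighm, 4 immunoglobulin constant genes were measured and all 4 were higher, of which 2 (Igkc and Ighg1) were present in both sets. Immunoglobulin genes other than Ighm took 0.000896% to 0.00172% of counts in the Ighm-low set and 0.00914% to 0.0101% in the Ighm-high set. Of 8 measured plasma cell markers 4 were higher (Mzb1, Ighg1, Ighg3 and Ighe), but Ighg3 and Ighe passed the level filter through the Ighm-high set. Of the 6 present in both sets 2 were higher, with a median of 0.11, and Tnfrsf17, a defining plasma cell receptor, had 0 counts in every deficient library. The plasma cell list therefore differed through immunoglobulin constant genes and Mzb1, a chaperone of antibody secretion.

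MHC class II genes, which present antigen on B cells and dendritic cells, followed the B cell genes. Of 15 measured members of the list 11 were higher and 0 lower, and 9 of the 13 present in both sets. H2-Aa, the alpha chain of I-A, read 5.99, 10.3, 4.80 and 9.68 CPM in libraries 1 to 4 and 59.2, 59.3 and 58.5 CPM in libraries 5 to 7. Ciita, the transactivator of class II genes, lay between 0.479 and 1.23 CPM in the Ighm-low set and between 4.44 and 4.96 CPM in the Ighm-high set. The list summed to 206 to 237 CPM against 455 CPM in each Ighm-high library. Clec9a and Siglech, which define dendritic cell subsets, had 0 counts in all deficient libraries. Other dendritic cell markers of the list went both ways. Flt3, Itgax and Irf8 were higher, with 24.4 to 33.6 CPM against 82.3 to 93.1 CPM for Irf8. Flt3 averaged under 1 CPM in the Ighm-low set, so it passed the level filter through the Ighm-high set. Zbtb46 and Batf3 overlapped, and Xcr1 and Cd209a were under the level filter.

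Markers of CD8+ T cells and NK receptors were also higher. Of 9 measured CD8 markers 6 were higher and 0 lower, of which Klrc1, Klrk1 and Klrd1 lie in the NK gene complex. Crtam went the other way and overlapped, with 47.5 to 70.7 CPM in the Ighm-low set and 40.9 to 50.2 CPM in the Ighm-high set. Itgae and Xcl1 overlapped too. The list sum ran from 114 to 168 CPM in the Ighm-low set and from 254 to 307 CPM in the Ighm-high set, against 18.2 to 31.4 CPM in controls. Cd8b1, the beta chain of CD8, read 33.3, 39.1, 22.9 and 32.2 CPM against 102, 98.0 and 84.2 CPM. All 14 measured members of the NK list were higher, 9 of them present in both sets, with a median of 1.11. Its sums were 28.1 to 29.7 CPM and 60.2 to 74.7 CPM. Ncr1, the receptor that defines NK cells, was under the level filter and overlapped, at 0.231 to 0.989 CPM and 0.469 to 0.977 CPM. In the NK gene complex, 11 neighbouring measured genes from Klre1 to Klra1 (chr6:129577905-130386874) were all counted as higher. Of these, Klre1, Klrc2 and Klra8 averaged under 1 CPM in the Ighm-low set and passed the level filter through the Ighm-high set. The unbroken run therefore rests in part on that filter. Members of the Klra family are near-identical copies, so how their reads were divided is uncertain.

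Markers of the remaining lineages were counted as higher in part. Of 8 measured gamma delta and NKT markers 1 was higher, the kinase gene Blk, which B cells also express, and the list median was -0.41. Blk passed the level filter through the Ighm-high set, and of the 7 members present in both sets 0 were higher and 0 lower. Trdc, the constant gene of the delta chain, overlapped between the sets, with 6.08 to 10.5 CPM and 5.63 to 6.46 CPM. Of 7 measured neutrophil, mast cell and basophil markers 3 were higher (Cpa3, Fcer1a and Ms4a2), with a list median of 1.00, and the neutrophil gene Retnlg had 0 counts. Ms4a2 passed the level filter through the Ighm-high set, and of the 6 present in both sets 2 were higher. Cpa3, the mast cell carboxypeptidase, read 2.47, 3.62, 2.83 and 3.20 CPM in libraries 1 to 4 and 21.1, 16.1 and 10.7 CPM in libraries 5 to 7. Macrophage markers gave 0 higher and 0 lower of 4 measured, with C1qa at 0. Of 3 measured erythroid, platelet and stromal markers Itga2b and Pecam1 were higher, and the globin genes Hba-a1, Hba-a2 and Hbb-bt and the platelet gene Gp9 had 0 counts. These 9 lists moved with the grouping to the extent given, and their part in the T cell results below was not tested.

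**Figure D2:**
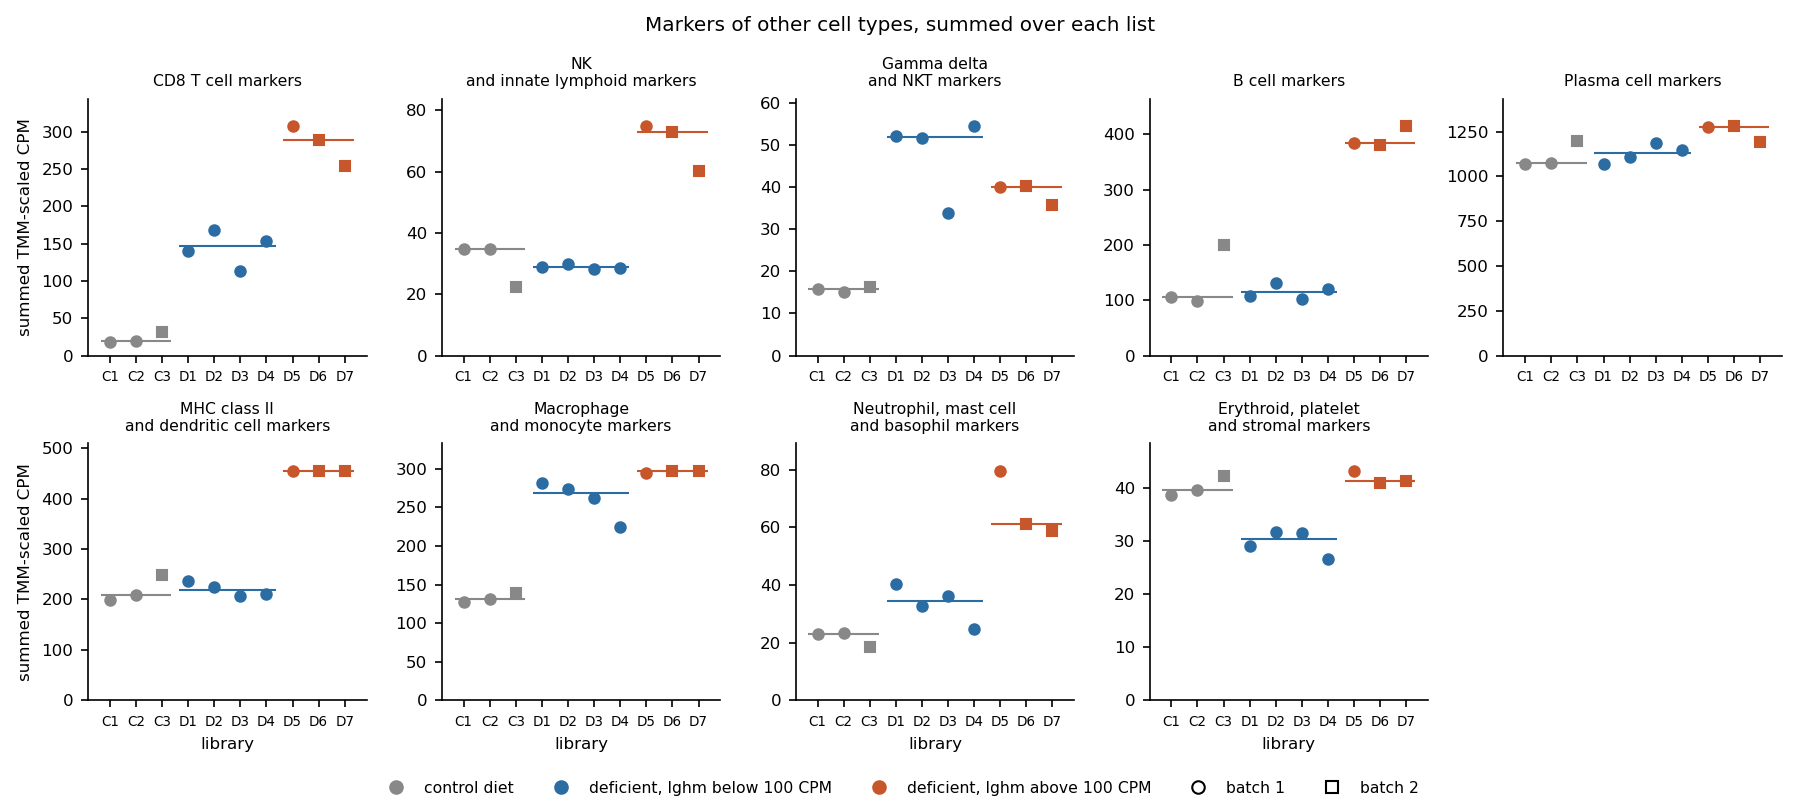
Summed TMM-scaled CPM of 9 lists of markers of other cell types in each library (C1 to C3 control, D1 to D7 deficient; squares are batch 2; lines are medians of each group). The plotted B cell sum includes Ighm, which chose the sets; without it the sum was 212 to 235 CPM in the Ighm-high set and 58.6 to 79.6 CPM in the Ighm-low set, while the macrophage sum was 295 to 297 CPM and 224 to 282 CPM.

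Genes of the T cell receptor were counted no more often than genes in general. T cell receptor genes took 0.1185% to 0.1231% of counts in the Ighm-low set and 0.1165% to 0.1266% in the Ighm-high set. Of 44 genes of the receptor complex and its signalling, 1 was higher and 0 lower, with a median of 0.01. Over all genes 4.63% were higher and 2.77% lower, so these counts do not set the list apart. The higher gene was Cblb, a ubiquitin ligase that restrains T cell activation, with 37.8, 22.2, 31.9 and 26.2 CPM in libraries 1 to 4 and 45.0, 47.0 and 46.4 CPM in libraries 5 to 7. Cd3e, a chain of the receptor complex, overlapped, with 23.6 to 32.1 CPM and 25.6 to 28.9 CPM. Cd4 overlapped too, with 359, 333, 394 and 323 CPM against 318, 330 and 298 CPM. Of 51 measured V segment genes 1 was higher and 0 lower, and of 23 J segment genes 0 were counted.

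The TH1 and interferon-gamma list had 12 higher and 1 lower of 29 measured genes, all of them present in both sets, with a median of 0.40. Ifng (chr10:118441046-118445892, plus strand) read 38, 64.1, 56.0 and 49.9 CPM in libraries 1 to 4 and 199, 191 and 146 CPM in libraries 5 to 7, against 3.60, 2.21 and 7.49 CPM in controls. The sets did not overlap, and the medians differed 3.59-fold. Il12rb2, the receptor chain through which IL-12 induces TH1 cells, read 74.9, 64.3, 69.7 and 66.4 CPM against 160, 158 and 131 CPM. Ifngr1, a chain of the interferon-gamma receptor, lay between 69.8 and 81.1 CPM in the Ighm-low set and between 118 and 155 CPM in the Ighm-high set. Tbx21, the master regulator of TH1 cells, was apart but under the fold, with 36.6, 34.8, 37.2 and 32.4 CPM against 42.5, 39.2 and 45.0 CPM. Eomes, its relative in cytotoxic cells, was higher, with 3.51 to 4.10 CPM against 6.69 to 10.3 CPM. The lower gene was Il18r1, a chain of the IL-18 receptor, with 7.39 to 11.5 CPM against 3.23 to 6.46 CPM. Tnf, the inflammatory cytokine, was apart but under the fold, with 96.2 to 115 CPM against 63.4 to 77.2 CPM.

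Cytotoxic genes gave 10 higher and 1 lower of 21 measured, all present in both sets, with a median of 0.37. Gzma, a granzyme, read 90.5, 96.5, 103 and 77.1 CPM in libraries 1 to 4 and 305, 272 and 202 CPM in libraries 5 to 7. Gzmb read 752, 785, 454 and 651 CPM against 1243, 1121 and 957 CPM, and its controls lay at 52.1 to 109 CPM. Prf1, which encodes perforin, read 29.9, 21.6, 16.8 and 17.2 CPM against 45.2, 45.8 and 34.5 CPM. The granzyme cluster of chromosome 14 held 7 neighbouring measured genes from Ctsg to Gzmb (chr14:56099881-56262260) that were all counted as higher, by 0.68 to 1.52 on the log2 scale. Gzmd, Gzme, Gzmf and Gzmg are close copies, so their separate levels are uncertain. The inhibitors of granzymes, Serpinb9 and Serpinb6b, were higher as well, with 200 to 226 CPM against 412 to 469 CPM for Serpinb9. Stx11, a syntaxin of granule release, was the lower gene, with 85.3 to 134 CPM against 54.3 to 64.0 CPM. CD8+ T cells and NK cells also express these genes, and their marker sums were 254 to 307 CPM and 60.2 to 74.7 CPM in the Ighm-high set. Whether those cells carried the difference was not tested.

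**Figure D3:**
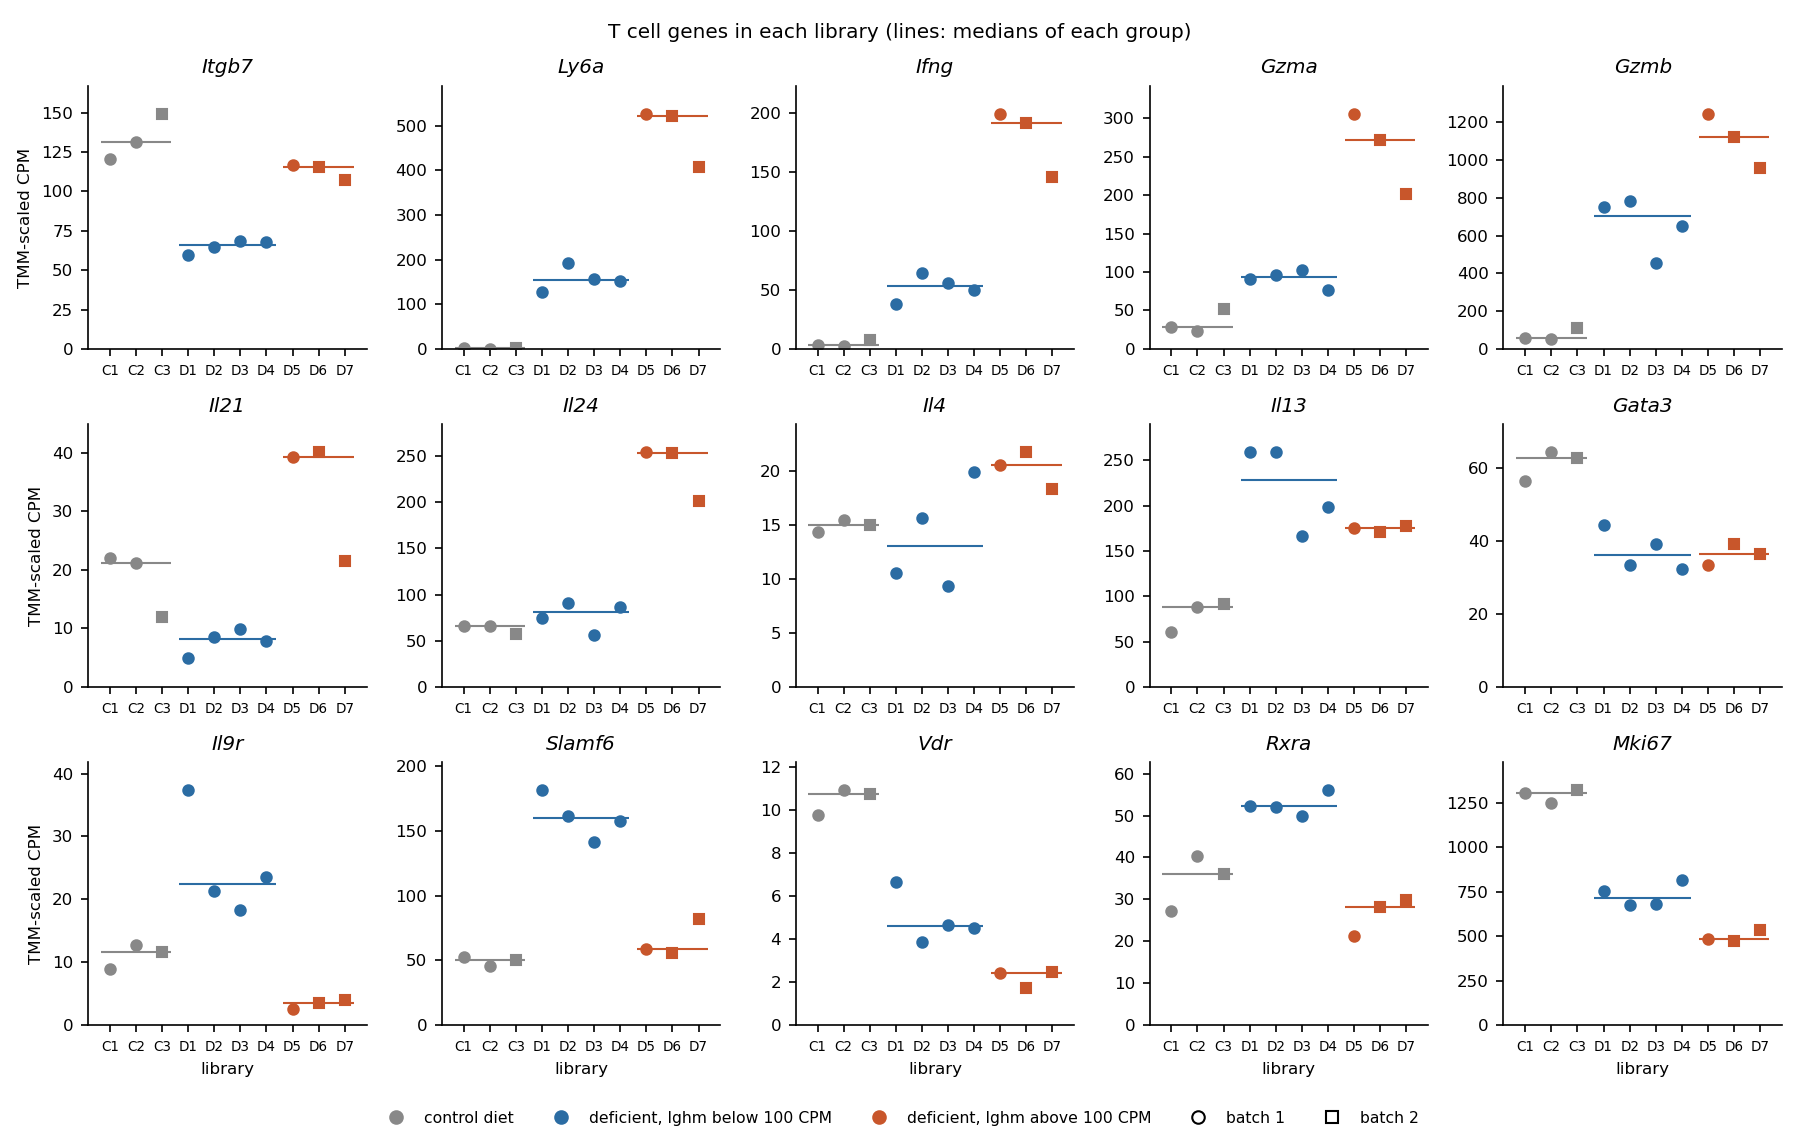
Levels of 15 T cell genes in each library, as TMM-scaled CPM on axes that start at 0 (C1 to C3 control, D1 to D7 deficient; squares are batch 2; lines are medians of each group). Ly6a, Ifng and Il24 are high in D5 to D7, Il9r, Slamf6 and Rxra are low there, and Gata3 overlaps with 33.4 to 39.2 CPM in the Ighm-high set and 32.3 to 44.5 CPM in the Ighm-low set.

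TH2 genes split within the list, with 7 higher and 3 lower of 37 measured and a median of 0.05, and 6 higher and 3 lower of the 36 present in both sets. Of the genes that define the lineage, Gata3 overlapped with medians 0.01 apart on the log2 scale. Il4 read 10.5, 15.6, 9.33 and 19.9 CPM in libraries 1 to 4 and 20.5, 21.7 and 18.3 CPM in libraries 5 to 7, and library 4 overlapped library 7. Il5 overlapped, with 17.0 to 34.3 CPM and 27.2 to 37.6 CPM. Il13 overlapped in the other direction, with 258, 259, 167 and 198 CPM against 176, 171 and 177 CPM. The regulatory cytokine Il10 read 20.8, 20.7, 9.47 and 19.4 CPM against 11.9, 9.62 and 8.10 CPM, and library 3 overlapped the Ighm-high set.

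The 7 higher members of the TH2 list were Il21, Il24, Il1rl1, Hpgds, Epas1, Ecm1 and Satb1. Il24 (chr1:130882074-130887454, minus strand), a cytokine of the IL-10 family, read 74.2, 90.5, 56.2 and 87.1 CPM in libraries 1 to 4 and 254, 253 and 202 CPM in libraries 5 to 7. Il21 (chr3:37222759-37232636, minus strand), a cytokine that helps B cells, read 4.87, 8.55, 9.89 and 7.85 CPM against 39.3, 40.1 and 21.6 CPM. The controls of Il21, at 22.1, 21.2 and 11.9 CPM, lay above the Ighm-low set. Il1rl1, the IL-33 receptor, Hpgds, a prostaglandin D synthase, and Epas1, which encodes HIF-2 alpha, were higher between the deficient sets but lay below all controls in both. Hpgds averaged under 1 CPM in the Ighm-low set, so it passed the level filter through the Ighm-high set. Epas1, for example, read 5.93 to 8.62 CPM, 12.4 to 14.0 CPM and 54.8 to 58.7 CPM in the Ighm-low, Ighm-high and control libraries.

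The lower members were Igfbp7, Pparg and Il2. Igfbp7, a secreted binding protein of insulin-like growth factors, read 16.8, 25.9, 18.8 and 22.6 CPM against 5.73, 4.88 and 7.86 CPM. Pparg, a nuclear receptor that supports TH2 function, read 47.2 to 58.9 CPM in the Ighm-low set, 26.7 to 30.6 CPM in the Ighm-high set and 67 to 78.2 CPM in controls. Il2, the T cell growth factor, read 39.0, 49.6, 43.7 and 56.3 CPM against 20.7, 26.5 and 30.3 CPM.

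Of 26 measured homing and memory genes 7 were higher and 1 lower, with a median of 0.30. Ly6a, the gene of the interferon-inducible stem cell antigen Sca-1, read 127, 193, 157 and 152 CPM against 526, 521 and 409 CPM, and at most 1.20 CPM in controls. Itgb7 and Itga4, the chains of the gut-homing integrin, were both higher, with 59.8 to 68.7 CPM against 108 to 116 CPM for Itgb7. Other naive T cell genes overlapped, among them Ccr7 with 53.4 to 91.4 CPM and 84.2 to 91.8 CPM, Tcf7 with 6.08 to 8.62 CPM and 7.52 to 9.74 CPM, and Lef1.

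The lower gene of that list was Slamf6 (chr1:171917515-171953170, plus strand), a receptor of the SLAM family on T and B cells. Its levels were 181, 162, 142 and 158 CPM in libraries 1 to 4 and 58.4, 55.5 and 81.9 CPM in libraries 5 to 7, close to the controls at 46.0 to 52.2 CPM. Among genes of the gamma chain cytokines, 3 were higher and 1 lower of 28. Il9r (chr11:32187541-32200279, minus strand), the IL-9 receptor, was the lower gene, with 37.4, 21.3, 18.4 and 23.5 CPM against 2.50, 3.46 and 3.99 CPM. Its medians differed 5.78-fold, and the controls, at 8.90 to 12.8 CPM, lay between the sets. Socs3, a feedback inhibitor of cytokine signalling, read 16 to 25.1 CPM against 31.4 to 42.6 CPM, and the IL-6 family cytokines Lif and Osm were higher too. Lif and Osm are neighbours on chromosome 11 in a run of 5 measured genes that were all counted as higher.

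Activation and co-stimulation receptors gave 9 higher and 1 lower of 34. The largest difference was in Cd86, the CD28 ligand of antigen-presenting cells, with 0.958, 2.08, 2.54 and 1.98 CPM in libraries 1 to 4 and 19.0, 23.4 and 24.2 CPM in libraries 5 to 7. B cells express Cd86 too, and whether they carried the difference was not tested. Entpd1, which encodes the ectonucleotidase CD39, read 5.91, 12.8, 6.36 and 12.7 CPM against 24.2, 21.6 and 19.6 CPM. Cd27, a TNF receptor of naive and memory lymphocytes, read 5.34 to 5.93 CPM against 8.80 to 12.0 CPM. Tnfsf11, which encodes RANK ligand, was lower, with 204 to 269 CPM against 132 to 144 CPM. Of the inhibitory receptors, Pdcd1 (PD-1) was apart but under the fold, with 83.7 to 118 CPM against 59.6 to 65.7 CPM.

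Of 22 measured follicular helper, regulatory and TH17 genes, 3 were higher and 1 lower. Cxcr5, the receptor for entry into B cell follicles, read 1.36, 2.00, 0.989 and 1.45 CPM against 9.93, 11.6 and 10.4 CPM, and B cells express it too. Pou2af1, a co-activator of B cells, read 4.95 to 11.1 CPM against 33.1 to 34.1 CPM. The lower gene was Nrp1, a co-receptor found on regulatory T cells, with 41.9 to 63.1 CPM against 22.1 to 25.6 CPM. Chemokine genes gave 6 higher and 0 lower of 20, with Ccl22, a ligand of the TH2 receptor CCR4, at 6.78 to 11.7 CPM against 21.1 to 33.8 CPM. Immediate early and NF-kappaB genes gave 2 higher and 1 lower of 44, namely Bcl3 and Tnfaip3 against Zfp36l2, with a median of -0.09. Those counts are near the shares over all genes, 4.63% higher and 2.77% lower.

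Ikzf3 stood in a list of 35 measured lymphoid regulators of which 7 were higher and 0 lower. Of the 7, Mef2c, Pax5, Spib, Irf8, Ebf1 and Bcl11a are factors of B cells or antigen-presenting cells, and 4 of the 32 members present in both sets were higher. Pax5, which fixes B cell identity, read 0.399, 1.46, 0.565 and 0.686 CPM against 5.89, 6.01 and 5.52 CPM. Ikzf1, the founder of the Ikaros family, was apart downwards and under the fold, with 192 to 206 CPM against 174 to 184 CPM. B cells express Aiolos as well as T cells, so the source of the additional Ikzf3 RNA cannot be told apart in these libraries.

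**Figure D4:**
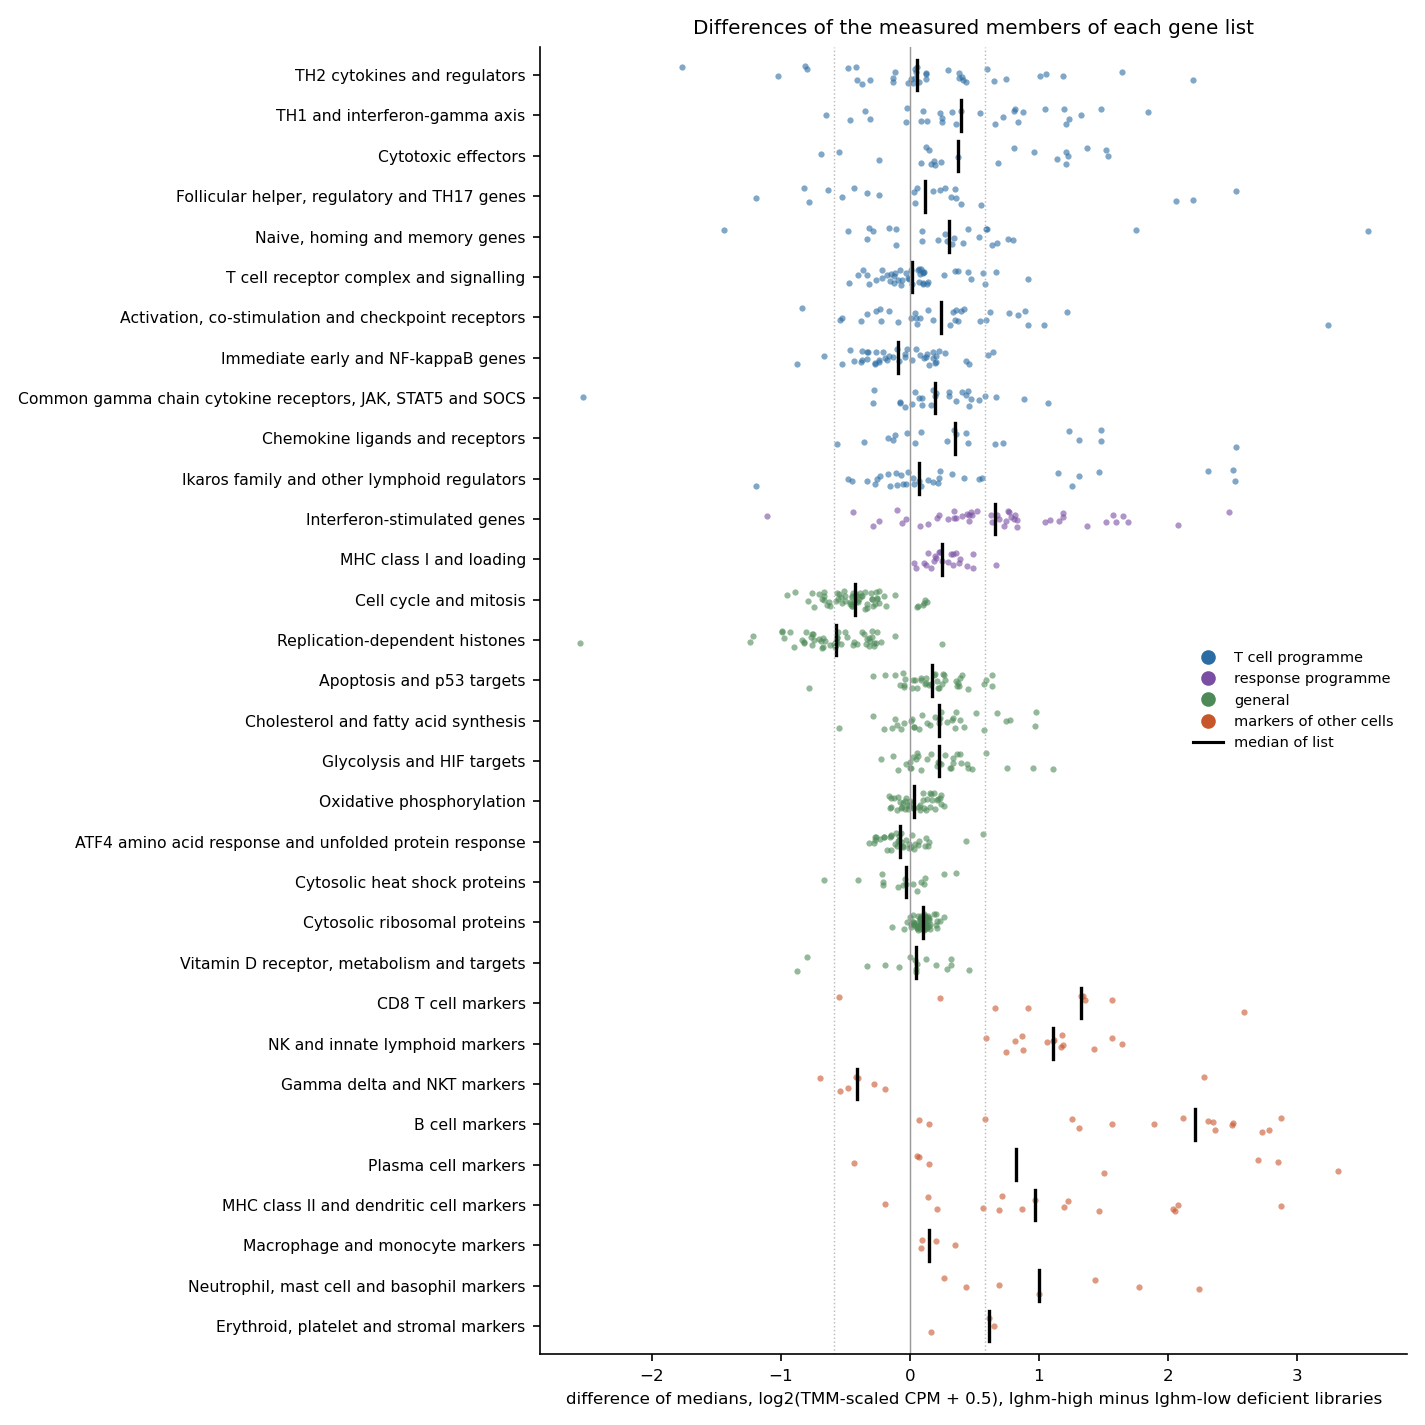
Differences between the Ighm-high and Ighm-low deficient libraries for the measured members of 32 gene lists, as the difference of median log2(TMM-scaled CPM + 0.5). Points are genes, black bars are list medians and dotted lines mark 1.5-fold; the B cell list has its median at 2.21, the interferon-stimulated genes at 0.66 and the replication-dependent histones at -0.57.

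Interferon-stimulated genes were the largest group of higher genes outside the markers of other cells. Their promoters are shown because they carry known response elements: the GAS element, TTCNNNGAA, which mediates responses to interferon-gamma, and the core of the ISRE, which is GAAA, any 2 bases and GAAA again, and which IRF factors bind. Both strands were searched in the 250 bases before the start of each gene, in RefSeq promoters on GRCm38.p6, and 17 of the 25 interferon-stimulated genes counted as higher were matched there. Of the 17, 10 (58.8%) held the ISRE core and 6 (35.3%) held the GAS element, against 3.0% and 7.0% of all 32851 promoter entries. Of the other measured genes of the list, 17 were matched, and 7 (41.2%) held the ISRE core and 5 (29.4%) the GAS element. The patterns can overlap, which happened in 18 promoters (0.0548%). In Igtp, Tgtp1 and Tgtp2, which encode immunity-related GTPases, a GAS element was followed after 2 bases by an ISRE core, and 7 of all promoters (0.0213%) held the patterns within 5 bases of each other. Capitals mark the GAS element and the ISRE core, written in the direction of the gene from 5′ to 3′.
Igtp, chr11:58199501-58199541, plus strand: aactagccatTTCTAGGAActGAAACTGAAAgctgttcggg
Tgtp2, chr11:49064263-49064303, minus strand: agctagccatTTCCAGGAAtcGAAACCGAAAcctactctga
Tgtp1, chr11:48992304-48992344, minus strand: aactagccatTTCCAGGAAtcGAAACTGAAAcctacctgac
Irf1, chr11:53769908-53769948, plus strand: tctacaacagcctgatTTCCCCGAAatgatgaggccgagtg
Gbp2, chr3:142620588-142620629, plus strand: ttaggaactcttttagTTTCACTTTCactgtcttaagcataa
The Irf1 window has a GAS element alone and the Gbp2 window an ISRE core on the opposite strand. A match is a description of the letters, not of a bound site.

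Of 48 measured interferon-stimulated genes 25 were higher and 1 lower, with a median of 0.66, and 38 lay above without overlap at any fold. Over all genes 4.63% were higher, 2.77% lower and 15.5% above without overlap. Of the 46 present in both sets 24 were higher. Summed over the list, the Ighm-low libraries held 2161 to 2418 CPM, the Ighm-high libraries 3388 to 3497 CPM and the controls 1770 to 1874 CPM, so none of these groups overlapped. Irf1, a transcription factor induced by interferon-gamma, read 74.3, 89.0, 105 and 88.2 CPM in libraries 1 to 4 and 183, 186 and 172 CPM in libraries 5 to 7. Its product is one of the factors that bind the ISRE.

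Guanylate-binding proteins, GTPases of defence against intracellular microbes, were higher in a run of 4 neighbours on chromosome 3 (chr3:142493978-142638008). Gbp2 read 50.4, 83.2, 78.7 and 80.2 CPM in libraries 1 to 4 and 244, 216 and 229 CPM in libraries 5 to 7. Igtp read 118, 158, 152 and 152 CPM against 273, 271 and 241 CPM. Tgtp1 read 2.63, 9.55, 9.61 and 10.3 CPM against 31.1, 28.9 and 29.5 CPM, and Tgtp1 and Tgtp2 are near-identical copies with uncertain separate levels. In Gbp2 and Tgtp1, library 1 was the lowest of the Ighm-low set. Usp18, which removes ISG15 and damps interferon signalling, read 0.878, 1.39, 1.70 and 1.22 CPM against 7.10, 8.42 and 4.22 CPM, and its controls at 6.58 to 7.90 CPM were near the Ighm-high set. The lower gene was Ifi203, a DNA sensor family gene, with 3.82 to 5.19 CPM against 1.29 to 2.23 CPM.

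MHC class I genes differed in the same direction by less. All 23 measured genes had a positive difference, 18 without overlap, and the median was 0.25, but only H2-T24 passed 1.5-fold. Over all genes 15.5% lay above without overlap. The list summed to 7637 to 8148 CPM in the Ighm-low set, 9115 to 9581 CPM in the Ighm-high set and 3262 to 3554 CPM in controls. Whether diet or another difference between the mice set the controls apart was not tested. The dependence of these genes on Ifng was not tested.

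Genes of cell division were lower. Of 62 measured cell cycle and mitosis genes 0 were higher and 13 lower, with a median of -0.43, and 52 lay below without overlap at any fold against 14.0% of all genes. Mki67, which encodes the proliferation antigen Ki-67, read 753, 675, 679 and 814 CPM in libraries 1 to 4 and 482, 473 and 538 CPM in libraries 5 to 7. With a difference of -0.57 it fell just short of the fold minimum, and its controls were at 1248 to 1322 CPM. Tyms, which makes thymidylate for DNA synthesis, read 88.6, 83.4, 72.8 and 89.0 CPM against 44.1, 44.1 and 53.2 CPM. Ccnb2, a mitotic cyclin, read 38 to 48.0 CPM against 24.3 to 30.8 CPM. Genes of S phase and of mitosis were both among the 13.

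Replication-dependent histones, which are made in S phase, were lower with a median of -0.57. Of 54 measured genes 0 were higher and 23 lower, and 48 lay below without overlap. Of the 53 present in both sets 22 were lower. Their sum was 4989 to 5776 CPM in the Ighm-low set, 3371 to 3766 CPM in the Ighm-high set and 6204 to 6896 CPM in controls. Hist1h1b, a linker histone, read 138, 128, 126 and 128 CPM against 65.6, 74.7 and 83.3 CPM. A run of 7 neighbours from Hist1h4j to Hist1h2an (chr13:21735064-21787218) were all counted as lower. Histone genes are near-identical in sequence and lack poly(A) tails, so their division among copies is uncertain. Hist1h4m had its difference of -2.56 from library 1 with 20.4 CPM and library 3 with 12.4 CPM, which are the libraries with Xist, while libraries 2 and 4 had 0.385 and 0.229 CPM. With the libraries without Xist alone its difference was -0.48.

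**Figure D5:**
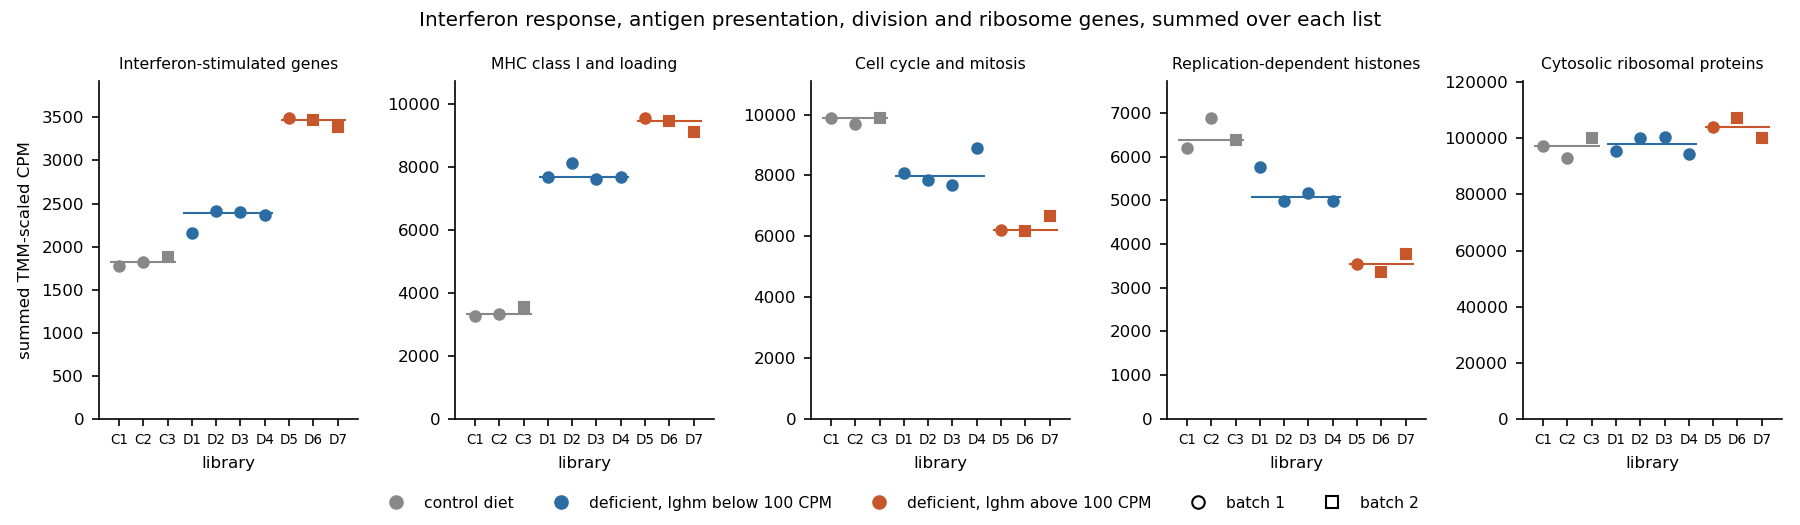
Summed TMM-scaled CPM of 5 gene lists in each library, on axes that start at 0 (C1 to C3 control, D1 to D7 deficient; squares are batch 2; lines are medians of each group). Interferon-stimulated genes sum to 3388 to 3497 CPM in the Ighm-high set and 2161 to 2418 CPM in the Ighm-low set, and histones to 3371 to 3766 CPM and 4989 to 5776 CPM.

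Other general programmes had at most 4 genes counted in a direction, to be read beside 4.63% higher and 2.77% lower over all genes. Of 33 measured glycolysis and HIF target genes 4 were higher, among them Hif1a, which encodes the oxygen-regulated factor HIF-1 alpha, with 802 to 872 CPM against 1094 to 1390 CPM. Of 35 cholesterol and fatty acid synthesis genes 4 were higher, such as Insig1, a brake on sterol synthesis, with 32.2 to 47.5 CPM against 55.8 to 71.6 CPM, while its controls lay at 141 to 150 CPM. Of 40 apoptosis and p53 target genes Perp, Fas and Birc2 were higher and Gadd45b lower. Fas, the death receptor, read 34.4, 49.9, 44.8 and 51.8 CPM against 80.8, 73.7 and 66.9 CPM. At any fold, 14 of the 33 glycolysis genes lay above without overlap and 0 below. The same held for 15 above and 1 below of the 35 cholesterol genes, and for 20 above and 1 below of the 40 apoptosis genes. These shares above exceeded the 15.5% over all genes. Oxidative phosphorylation (41 genes), the ATF4 and unfolded protein response (38), cytosolic heat shock proteins (16) and ribosomal proteins (61) had 0 genes counted in either direction. The ribosomal median was 0.11, with 17 genes above without overlap and 0 below, against 15.5% above and 14.0% below over all genes.

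Of 16 measured genes of the vitamin D system 2 were lower, the receptor and its partner, and 0 were higher. Vdr (chr15:97854425-97910630, minus strand) read 6.62, 3.85, 4.66 and 4.50 CPM in libraries 1 to 4 and 2.42, 1.73 and 2.46 CPM in libraries 5 to 7. The controls, at 9.76, 10.9 and 10.7 CPM, lay above both deficient sets. Across the diets, the log2 fold change of Vdr was -1.68 with a standard error of 0.28 (edgeR quasi-likelihood test with batch as a term, 7 deficient against 3 control libraries, adjusted p = 0.000156). This is the test of diet and not of the sets, and 58.0% of the 13699 genes tested passed it. Rxra (chr2:27676440-27762957, plus strand) read 52.4, 52.0, 49.9 and 56.0 CPM against 21.3, 28.3 and 29.9 CPM, with controls at 27.2 to 40.4 CPM. In the same edgeR test its log2 fold change was 0.09 with a standard error of 0.33 and an adjusted p of 0.826. Cyp24a1, the enzyme that degrades active vitamin D and the classical target of the receptor, had 0 counts in every deficient library.

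Some of the largest differences lay outside the lists. Upp1, a uridine phosphorylase, read 3.51, 5.70, 5.94 and 4.19 CPM in libraries 1 to 4 and 33.8, 36.0 and 25.9 CPM in libraries 5 to 7. Gm15446 (chr5:109923400-109943936, plus strand), a predicted protein-coding gene, read 30.0, 20.4, 27.0 and 18.6 CPM against 2.26, 1.43 and 1.88 CPM, while its controls were at 17.6 to 19.4 CPM. Spx, which encodes the peptide hormone spexin, read 63.0, 35.5, 40.3 and 34.2 CPM against 5.25, 6.46 and 8.80 CPM. Ccn4, a matricellular protein of the WNT response, read 150, 99.3, 95.5 and 85.1 CPM against 21.2, 25.3 and 33.8 CPM. Ostn (chr16:27307489-27351212, plus strand), which encodes the peptide osteocrin, was at 0.306 CPM or less in controls, at 38.5, 45.5, 43.1 and 50.2 CPM in the Ighm-low set and at 6.05, 6.61 and 7.39 CPM in the Ighm-high set. Of the genes in the same region of chromosome 16, P3h2 (chr16:25959288-26105784) and Tprg (chr16:25286817-25422344) were also lower. Both were chosen after their values were seen.

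The position of the controls differed between higher and lower genes. For the 559 higher genes the control median was nearer the Ighm-low set in 386 (69.1%) and nearer the Ighm-high set in 173 (30.9%), against 51.3% and 48.7% of all genes measured. For the 334 lower genes the shares were 49.7% and 50.3%. Control library 3, the control of batch 2, lay at least 1.5-fold above the other controls in 75 of the 559 higher genes (13.4%), against 1.80% of all genes. In the test of diet, Ikzf3 had a log2 fold change of 0.11 with a standard error of 0.35 (edgeR, adjusted p = 0.800). Ifng passed, with 4.55 and a standard error of 0.84 (edgeR, adjusted p = 0.00246), and both deficient sets lay above every control. These fits treat the 7 deficient libraries as replicates, although the sets differ by the amounts given here. Some genes, among them Ly6a, H2-K1 and Ostn, lay far above every control in both deficient sets. Whether diet or another difference between the mice did this was not tested.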

How the data were processed

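Total RNA of day 5 TH2 cultures was made into stranded libraries with a globin kit, per the labels' protocols. The authors deposited 1 table of unnormalised counts, with Ensembl genes in rows and the 10 libraries in columns. The submitters' processing notes name STAR 2.7.10a, HTSeq 0.13.5 and the build GRCm38. The setting for strand and the annotation release were not given in the sources used here, and overlapping genes on opposite strands are therefore uncertain. IDs were matched to GENCODE M21 (49412 of 49671; the other 259 held 0.0226% of counts). Ighm was read on plain column totals for the grouping, and all other levels on totals scaled by TMM (edgeR 4.0.16, R 4.3.3). Sets were compared by the difference of median log2(CPM + 0.5) and by overlap, without a test. The diet was tested with edgeR's quasi-likelihood test (diet and batch, 10 libraries, filterByExpr minimum count 10, Benjamini-Hochberg). On simulated counts for deficient against control (13282 genes), this test called 29 of 63 genes changed 1.5-fold, 56 of 65 changed 2-fold, 59 of 61 changed 4-fold and 10 of 13093 unchanged genes. The simulation gave all genes the same dispersion, with no batch difference and no sets among the deficient libraries. Its rates may therefore not hold for the real libraries. Depth per library was 5800698 to 13433276 counts, which limits genes near 1 CPM most in the control libraries. Because no label ties libraries to separate mice, p-values cover only sample-to-sample spread, which could be technical.

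The grouping and the 32 gene lists were chosen with earlier results of these data known. Named genes are the 5 markers, the 12 protein-coding genes of largest difference in each direction with a mean of at least 5 CPM, up to 4 counted members per list (2 of largest difference where none was counted), and Gata3, Il4, Il5, Il13, Il10, Tbx21, Cd4, Cd8b1, Cd3e, Ikzf1, Vdr, Mki67 and Gzmb. Some genes the rule names are not reported here. Further list members, and the genes marked as such, were named after their values were seen. Alternatives covered scaling, filter, fold minimum, pseudocount, batch 1 alone, libraries without Xist alone, gene types, the totals and each library left out; for diet, also DESeq2 1.42.0, no filter and no batch term. Figures were drawn with matplotlib 3.10.9.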

Additional observations from a re-analysis of the deposited data

How the results depend on the processing

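The counts between the sets (559 higher, 334 lower) depended most on the thresholds. With a fold minimum of 2 they were 254 and 101, without a fold minimum 1870 and 1689, and under a filter of 5 CPM on the mean 332 and 216. Within batch 1 alone 621 genes were lower, where 1 library in place of 3 had to separate from 4. Leaving out each deficient library in turn gave 550 to 626 higher and 333 to 450 lower genes. Column totals without TMM gave 557 and 341, and median-of-ratios scaling 545 and 324, of which 538 and 319 were shared. Libraries without Xist alone gave 649 and 419, and 0 genes counted in 1 direction were counted in the other under the alternatives run. Where libraries were only left out this was fixed in advance, because sets that do not overlap stay apart in any part of them. No paired analysis was possible because replicates were numbered by accession and no label pairs them. With 3 and 4 libraries per set, batch and Xist status divided unevenly between them, and low counts near 1 CPM, differences of genes at low level rest on few reads. The number of genes higher in deficient than in control libraries was 4032, and 3417 to 4793 under the alternatives run. The number of genes lower in deficient than in control libraries was 3915, and 3262 to 3988. The side of the threshold held in each of them for Vdr, Ifng, Rxra and Ikzf3.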
